A study of Mus musculus with 24 samples.

Results

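The nuclear genes of the respiratory chain were examined in hippocampal messenger RNA of mice. They were taken from the gene table by symbol, and each was placed in a complex by its symbol. The symbols were those of the families Ndufa, Ndufb, Ndufc, Ndufs, Ndufv, Uqcr, Cox4i to Cox8 and Atp5, the 4 Sdh genes and Cyc1. Symbols starting with Ndufaf and symbols with -ps were left out. A member need not be a structural subunit of its complex. This gave 86 of 24058 symbols, with 38 in complex I, 4 in complex II, 9 in complex III, 18 in complex IV and 17 in complex V. The table had no entry for a mitochondrially encoded gene, so the core subunits made inside mitochondria are not analysed here.

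The respiratory chain sits in the inner mitochondrial membrane. Complexes I and II take electrons from NADH and succinate, complex III passes them to cytochrome c, complex IV hands them to oxygen, and complex V uses the proton gradient to make ATP. Neurons depend heavily on this pathway, and most of its subunits are encoded in the nucleus and imported.

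All mice carried the PS19 transgene, human tau with the P301S change, which is known to be driven by the mouse prion promoter and to form tau aggregates in neurons. They differed at Trem2, a lipid-sensing receptor of microglia. Group names follow the titles' prefix, the sex and the genotype. LG72 held 5 females and 5 males with 1 human TREM2 allele carrying R47H (hTREM2-R47H/+), and 3 females and 2 males with mouse Trem2 alone (msTrem2+/+). LG73 held 6 females with 1 human TREM2 allele of the common form (hTREM2-WT/+) and 3 females with mouse Trem2 alone. R47H and human WT never shared a prefix, and the prefixes are not explained in the labels. The labels give no age and do not say whether libraries came from separate animals, so the p-values cover only how far such libraries vary, which may be technical. Each comparison asked how the human allele differed from mouse Trem2 under the same prefix and sex.

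Depth ran from 13261478 to 23807390 counts in the 24 libraries, and the 5 R47H females were all shallower than their 3 controls. The members took 0.925% to 2.38% of a library's counts. Some libraries stood apart in transcripts of other regions: 6 had Prl (a pituitary hormone) or Omp (an olfactory neuron protein) above 50 CPM (the count scaled to library size with TMM factors) or Adora2a (a striatal receptor) above 30 CPM. They were R47H female 5, LG72 mouse Trem2 females 1 and 3, LG73 mouse Trem2 female 3, and human WT females 2 and 5. Results on all members are given with and without them.

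Many respiratory chain promoters in mammals are known targets of NRF1, GABP (an ETS factor), YY1 and the estrogen-related receptors, so short core motifs of these factors were searched in the promoter windows. RefSeq (GRCm38.p6) windows of 250 bases before to 50 bases after the start were found for 70 of 86 members, 3 of them under another symbol. The letters searched, on both strands, were CGCATGCG for NRF1, CCGGAAGT for ETS, AAGATGGCG for YY1 and TCAAGGTCA for the estrogen-related receptors, and no matches of 2 motifs overlapped. The NRF1 letters were in the windows of 9 of 70 members (12.9%) and of 559 of 27025 genes (2.07%). The YY1 letters were in 8 members (11.4%, against 1.64% of genes) and the ETS letters in 5 (7.1%, against 4.31%). The receptor letters were in 2 members (2.9%, against 0.47%). Any of the first 3 motifs was found in 20 members: 8 of 33 in complex I, 0 of 3 in complex II, 3 of 5 in complex III, 2 of 13 in complex IV and 7 of 16 in complex V. The share of all genes with any of these 3 motifs was not counted, so these counts have no background beside them. A match of this kind describes the letters only.

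Shown are stretches of 90 bases upstream of the start for 5 members of complexes I, III, IV and V, with the match in capitals. They lie at chr17:56717662-56717751, plus strand (Ndufa11, NRF1 letters), chr10:80406839-80406928, minus strand (Uqcr11, ETS letters) and chr5:115349071-115349160, minus strand (Cox6a1, NRF1 letters). The other two lie at chr2:73911329-73911418, minus strand (Atp5g3, receptor letters as the reverse complement) and chr9:44920903-44920992, minus strand (Atp5l, NRF1 letters).
Ndufa11: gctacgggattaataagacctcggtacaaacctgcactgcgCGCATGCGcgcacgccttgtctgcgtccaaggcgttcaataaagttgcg
Uqcr11: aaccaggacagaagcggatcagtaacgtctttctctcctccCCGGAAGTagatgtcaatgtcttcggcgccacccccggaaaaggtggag
Cox6a1: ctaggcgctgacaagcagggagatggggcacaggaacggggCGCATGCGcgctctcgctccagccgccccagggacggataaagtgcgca
Atp5g3: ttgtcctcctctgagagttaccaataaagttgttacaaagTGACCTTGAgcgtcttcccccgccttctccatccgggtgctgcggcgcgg
Atp5l: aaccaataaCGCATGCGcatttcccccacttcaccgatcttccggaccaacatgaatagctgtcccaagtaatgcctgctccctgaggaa

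Levels of single members spanned a wide range. Per kilobase of transcript, the highest was Cox4i1, the main form of the regulatory subunit 4 of cytochrome c oxidase, at a mean of 1448 CPM per kb over the 24 libraries. Next were Cox6c with 770.0, Atp5b, the catalytic beta subunit of ATP synthase, with 745, and Cox6a1 with 573 CPM per kb. Among members with a mean of at least 10 CPM, the median level was 149.5 CPM per kb in complex I, 121 in complex II, 162 in complex III, 246 in complex IV and 239.9 in complex V. Cox8c had no count in any library and was not tested. The other 85 members passed the filter on low counts. Over all libraries, the core subunits Ndufs1 and Ndufv1 of complex I ran from 94.9 to 186 and from 189.9 to 328 CPM. Sdha and Sdhb, the head of complex II, ran from 426 to 671 and from 117 to 366 CPM. Cyc1 and Uqcrfs1, the Rieske iron-sulfur protein, ran from 116 to 239 and from 69.8 to 202 CPM, and Cox4i1 and Cox5a from 442 to 2321 and from 72.8 to 252 CPM. The widest of these ranges relative to its lowest value was that of Cox4i1.

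**Figure D1:**
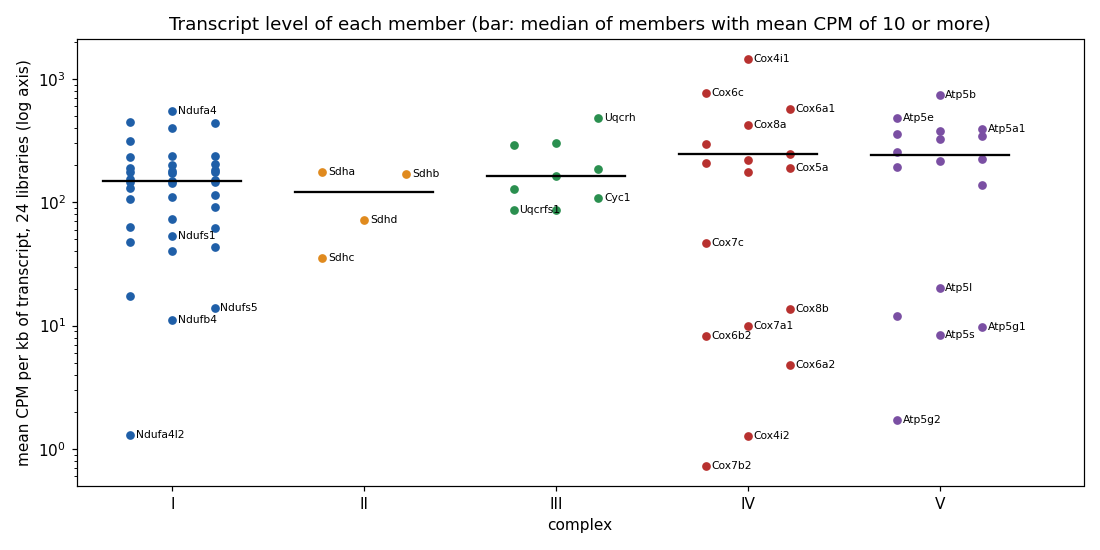
Mean level of each member with counts, in CPM per kb of transcript over the 24 libraries (log axis), by complex; bars are medians of members with a mean of at least 10 CPM. Cox4i1 lies highest at 1448 CPM per kb, and the minor complex IV forms lie between 0.733 (Cox7b2) and 13.7 (Cox8b).

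In 7 pairs of alternative forms, the form known from most tissues predominated in hippocampus. On the per-length scale, Cox4i2 made up a median of 0.0907% of the Cox4i1 and Cox4i2 sum, and Cox6a2, the heart and muscle form, 0.740% of its pair. The minor share was 2.64% for Cox6b2, known as a testis form, 4.08% for Cox7a1, a heart and muscle form, and 1.11% for Cox8b, another muscle form. Ndufa4l2 made up 0.258% of its pair with Ndufa4, and Cox7b2 0.340% of its pair with Cox7b. Among the 3 genes of the membrane c ring, Atp5g3 made up a median of 97.2% of the sum, Atp5g1 2.35% and Atp5g2 0.422%. These shares depend on the transcript lengths used, 718.5 bases for Atp5g3, 2675.5 for Atp5g1 and 586 for Atp5g2. Of these 7 pairs, Cox8b had the widest range: its share ran from 0.169% in LG72 mouse Trem2 female 3 to 14.4% in R47H male 4.

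Near-identical processed copies can take reads from a parent gene. In GENCODE M21, 53 tested members had no pseudogene with at least 90% identity over 80% of the coding sequence, 26 had 1 to 2, and 6 had 4 or more (Atp5l with 13, Atp5h with 5, and Cox7c, Uqcrb, Cox7b and Atp5g1 with 4 each). The median level was 151 CPM per kb without a copy, 192 with 1 to 2 copies and 67.0 with 4 or more. No source used here says how such reads were counted, so the levels of these 32 members are uncertain. Of the c ring genes, Atp5g1 had 4 copies, Atp5g2 had 2 and Atp5g3 had 0, so their shares given above are uncertain too.

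The members differed more between libraries than most genes did. The SD of log2 CPM over the 24 libraries had a median of 0.48 in the 76 members with a mean of at least 10 CPM, and of 0.33 in the 9893 genes at that level. The steadiest members were large F1 and complex I subunits: Atp5a1 with an SD of 0.14, Atp5b with 0.17 and Ndufa10 with 0.18. Atp5a1, the alpha subunit of ATP synthase, ran from 799.6 to 1131 CPM over all libraries. The most variable were small subunits: Atp5l with 0.84, Cox7c with 0.90 and Ndufb4 with 0.93. Ndufb4, an accessory subunit of complex I, ran from 1.56 to 23.1 CPM.

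Libraries were high or low for most members at once. For each library the deviations of log2 CPM from each gene's mean over the 24 libraries were averaged over the 85 members. This score ran from -0.81 in LG72 mouse Trem2 male 2, where 5 of 85 members were above their own mean, to 0.73 in R47H female 5, where 77 were. Groups were mixed. Of the R47H females, replicate 2 had 8 members above their mean and the others 69 to 81, while their 3 controls had 81, 32 and 10. Of the 5 R47H males, replicates 3 and 4 had 69 and 73 and the others 22, 22 and 28, against 10 and 5 in their 2 controls. The 6 human WT females had between 5 and 82, with 3 at 61 or more, and their 3 controls had 33, 10 and 9. The score of complex I had the same sign as that of all members in 23 of 24 libraries. Complex II did so in 22, complex III in 22, complex IV in 21 and complex V in 23. Each complex is part of all members, so some agreement is built in, and no complex was compared with the other members.

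**Figure D2:**
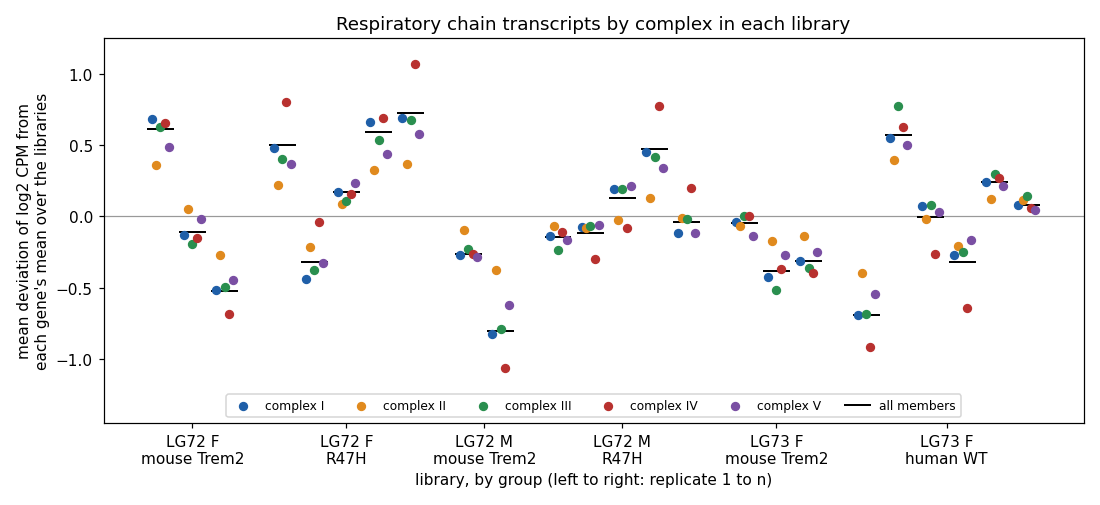
Mean deviation of log2 CPM from each gene's mean over the 24 libraries (vertical axis), for each complex (points) and for all members (black bars), in every library by group. Within the LG72 mouse Trem2 females alone the bars lie between -0.52 and 0.61, and the 5 complexes lie close together in most libraries.

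This shared pattern went with the libraries' balance of short and long transcripts. For each library, the slope of its log2 CPM deviations on log2 transcript length was taken over all genes tested that have a length in GENCODE M21. All 10 libraries with a members' score above 0 had a negative slope (-0.37 to -0.044, more signal from short transcripts), and the 14 with a score below 0 had slopes from -0.011 to 0.26. Member transcripts were short, with a median of 838 bases, against 2842 over all genes tested. Among members with at least 10 CPM, the median SD was 0.54 for the 44 with transcripts of up to 1000 bases and 0.34 for the 32 longer ones. Among other genes at that level it was 0.49 for the 510 short ones and 0.32 for the 9259 longer ones. Beside the results below, values for short and long transcripts and from a fit with the slope as a covariate are given.

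**Figure D3:**
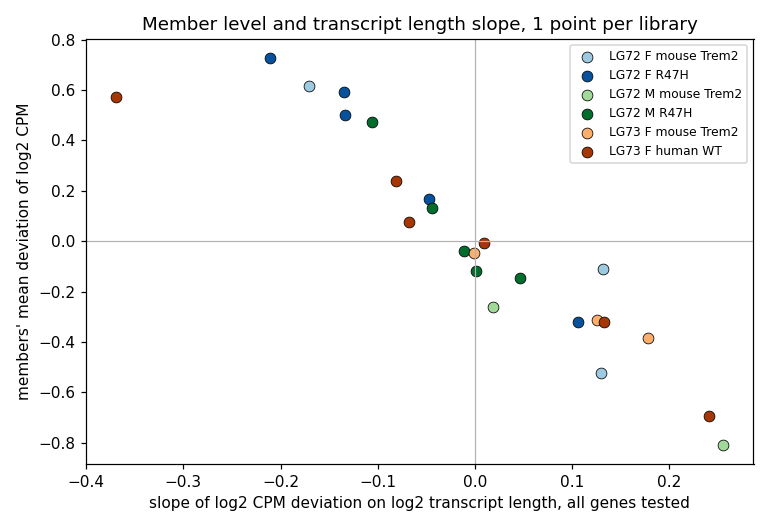
Members' score (vertical axis, mean deviation of log2 CPM) against the length slope over all genes tested (horizontal axis), 1 point per library, coloured by group. The 10 libraries above 0 all lie left of a slope of 0, and the highest slope, 0.26, belongs to the lowest score, -0.81.

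In R47H females against mouse Trem2 females of LG72, most members had fold changes above 0 and none passed the test. The median log2 fold change of the 85 members was 0.30, with 72 above 0 (50.5% of all 16118 genes were above 0, with a median of 0.0049). By edgeR's quasi-likelihood test with Benjamini-Hochberg adjustment over all genes, 0 members were called at an adjusted p under 0.05, as were 0% of all genes. At an unadjusted p under 0.05, 4 members were higher, against 8.68% of all genes in that direction. No member had all 5 R47H libraries above all 3 controls, against 3.59% of all genes. DESeq2 called 1 member (Cox6b2, or 1 of 85) and 1.14% of all genes, and limma-voom called 0 members and 0% of all genes. Medians by complex were 0.30 in complex I, 0.05 in II, 0.31 in III, 0.31 in IV and 0.21 in V. Without the 6 libraries that stood apart, the median was 0.40 with 74 members above 0, without control 3 it was 0.05, and without control 1 it was 0.71.

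In complexes I, III and V, medians were taken by role. The 7 core subunits of complex I, which carry its redox centres, had a median log2 fold change of 0.01, and the 29 accessory subunits 0.35. In complex III, the catalytic pair Cyc1 and Uqcrfs1 had a median of -0.03, the core proteins Uqcrc1 and Uqcrc2 -0.09, and the 5 small subunits 0.45. In complex V, the 5 subunits of the F1 part had 0.04, the 3 c ring genes 0.15 and the 7 of the stalk and membrane part 0.51. Ndufa4, Ndufa4l2, Atp5s and Atp5sl were given no role. The roles also differed in median transcript length. It was 1623 bases for the core and 763 for the accessory subunits of complex I. In complex III it was 1441.5 for the catalytic pair and 535 for the small subunits. In complex V it was 1170.5 for the F1 part and 742 for the stalk and membrane part. Members with transcripts of up to 1000 bases and at least 10 CPM had a median of 0.35, and the 510 other genes of that kind 0.30. Longer members had 0.09 and longer other genes -0.07. With the length slope as a covariate the members' median was -0.0002, with 42 of 85 above 0.

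Single members showed the overlap between the groups. Ndufb10, an accessory subunit of complex I, had 445, 222, 355, 509 and 502 CPM in the R47H females and 370.0, 259 and 178 in the controls. Replicate 2 lay among the controls and control 1 above the lowest R47H libraries, so the groups overlapped. Its log2 fold change was 0.60 (SE 0.26, edgeR adjusted p = 0.317). Ndufa12, another accessory subunit, had 0.56 (SE 0.28, edgeR adjusted p = 0.377).
In complex II, Sdhc, a membrane anchor, had 0.30 (SE 0.18, edgeR adjusted p = 0.451), and Sdha, the flavoprotein that oxidises succinate, -0.06 (SE 0.16, edgeR adjusted p = 0.889). In complex III, the small subunit Uqcrh had 511, 172, 313, 422 and 498 CPM in the R47H females and 349.6, 235 and 122 in the controls. Again replicate 2 and control 1 crossed. Its log2 fold change was 0.70 (SE 0.38, edgeR adjusted p = 0.407), and that of Uqcrb, another small subunit, 0.45 (SE 0.24, edgeR adjusted p = 0.398). In complex V, the stalk subunits Atp5h and Atp5o had 0.54 (SE 0.31) and 0.51 (SE 0.30), with edgeR adjusted p of 0.429 and 0.435. Without control 3, Ndufb10 was at 0.37, Ndufa12 at 0.29, Uqcrb at 0.21, Uqcrh at 0.39, Atp5h at 0.2081 and Atp5o at 0.32. Without control 1, Ndufa12 was at 0.85, Uqcrh at 1.06, Atp5h at 0.81 and Sdhc at 0.1953. Sdha was at 0.0775 without control 2. Atp5b and Atp5a1, the beta and alpha subunits of ATP synthase, lay on the other side of 0, with -0.22 and -0.13. So did Ndufs1, the largest complex I core subunit, with -0.28. Still, 3 of the 5 F1 subunits and 5 of the 7 complex I core subunits were above 0.

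In R47H males against mouse Trem2 males of LG72, the values were larger and again no member passed. With 2 controls, the median log2 fold change was 0.60, with 80 of 85 members above 0 (53% of all genes, median 0.03). EdgeR called 0 members and 0% of all genes, and DESeq2 and limma-voom called 0 members (0.0186% and 0% of all genes). At an unadjusted p under 0.05, 14 members were higher, against 2.67% of all genes. All 5 R47H males lay above both controls for 37 members, against 6.38% of all genes. The medians were 0.62 in complex I, 0.26 in II, 0.60 in III, 0.85 in IV and 0.42 in V. Without control 2, the library with the lowest score, the median was 0.33. Members with short transcripts had a median of 0.76 (other genes of that kind 0.48) and longer members 0.30 (other genes -0.04). With the length slope as a covariate the median was 0.16, with 70 members above 0.

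By role in males, accessory subunits of complex I had a median of 0.65 and the core subunits 0.27, small subunits of complex III had 0.84 and the catalytic pair 0.24, and the stalk and membrane part of complex V had 0.81 and the F1 part 0.34. Ndufa3, an accessory subunit, had 83.8, 76.0, 79.4, 112 and 64.3 CPM in the R47H males and 48.1 and 40.1 in the controls. The groups did not overlap, and the log2 fold change was 0.91 (SE 0.30, edgeR adjusted p = 0.779). Ndufb4 had 7.18, 10.6, 17.2, 17.3 and 7.82 CPM against 6.08 and 1.56. Its log2 fold change of 1.64 (SE 0.66, edgeR adjusted p = 0.779) depended on the 2 controls: without control 2 it was 0.98, and without control 1 it was 2.94.
Uqcr11, a small subunit of complex III, had 90.9, 128, 142, 236 and 110.2 CPM against 84.0 and 41.9, a log2 fold change of 1.17 (SE 0.57, edgeR adjusted p = 0.779). It was 0.75 without control 2 and 1.76 without control 1. Uqcrb had 0.60 (SE 0.28). Atp5k, a membrane subunit of ATP synthase, had 106.1, 134, 182, 268 and 87.5 CPM against 75.6 and 60.8, a log2 fold change of 1.19 (SE 0.48, edgeR adjusted p = 0.779). These groups did not overlap either, and replicate 4 was the highest in each of the 2 genes. Atp5h had 0.83 (SE 0.36). In complex II, Sdhb, the iron-sulfur subunit, had 0.44 (SE 0.35) and Sdhc 0.25 (SE 0.21), with edgeR adjusted p of 0.803 and 0.807. Without control 2 they were at 0.22 and -0.028, and without control 1 at 0.70 and 0.60. Ndufs1 was at -0.29, again the lowest of complex I.

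In human WT females against mouse Trem2 females of LG73, the median log2 fold change of the members was 0.35, with 77 of 85 above 0 (54.6% of all genes, median 0.04). EdgeR, DESeq2 and limma-voom each called 0 members and 0% of all genes. At an unadjusted p under 0.05, 2 members were higher, against 2.28% of all genes, and 2 were lower, against 1.63%. For 0 members did all 6 human WT libraries lie above all 3 controls, against 1.37% of all genes, and for 2, Cox8b and Cox6b2, they lay below, against 1.45%. The medians by complex were 0.31 in I, 0.24 in II, 0.42 in III, 0.39 in IV and 0.20 in V. Without the 6 libraries that stood apart the median was 0.03, with 54 members above 0, and without human WT female 2 alone it was 0.19. Members with short transcripts had a median of 0.38 (other genes of that kind 0.33), and longer members 0.28, with 90.6% above 0 (other genes 0.0098, with 51.4% above 0). With the length slope as a covariate the members' median was -0.04, with 32 above 0. By role, the core subunits of complex I had a median of 0.26 and the accessory subunits 0.35. In complex III the catalytic pair had 0.35 and the small subunits 0.56. In complex V the F1 part had 0.18 and the stalk and membrane part 0.32.

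The complexes held similar examples. Ndufs5, an accessory subunit, had a lowest, median and highest value of 5.87, 7.89 and 10.7 CPM in the human WT females, while controls 1, 2 and 3 had 6.07, 4.16 and 4.95 CPM, a log2 fold change of 0.62 (SE 0.33, edgeR adjusted p = 0.860). The 2 lowest human WT libraries lay below control 1, so the groups overlapped. Ndufs7, a core subunit with an iron-sulfur cluster, had 0.45 (SE 0.29, edgeR adjusted p = 0.860), and -0.0035 without the libraries that stood apart. Cyc1, cytochrome c1, had 125.7, 178 and 239 CPM (lowest, median and highest) against 172, 118 and 123, a log2 fold change of 0.41 (SE 0.21, edgeR adjusted p = 0.860). Control 1 lay near the human WT median, and the groups overlapped. Uqcrc1 had 0.42 (SE 0.26), Sdhd, a membrane anchor, 0.41 (SE 0.30), Atp5d, the delta subunit of the F1 part, 0.52 (SE 0.30) and Atp5sl 0.32 (SE 0.21), each with an edgeR adjusted p of 0.860. Without human WT female 2, Atp5d was at 0.19, Atp5sl at 0.15, Sdhd at 0.1878, Uqcrc1 at 0.26 and Ndufs7 at 0.2489. Ndufs7 was at 0.68 without control 1. Sdha had 426, 467 and 519.6 CPM against 471, 632 and 586, a log2 fold change of -0.26 (SE 0.15, edgeR adjusted p = 0.860) that was -0.17 without control 2. Atp5sl (Dmac2) and Atp5s (Dmac2l) carry the Atp5 prefix but are not structural subunits.

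**Figure D4:**
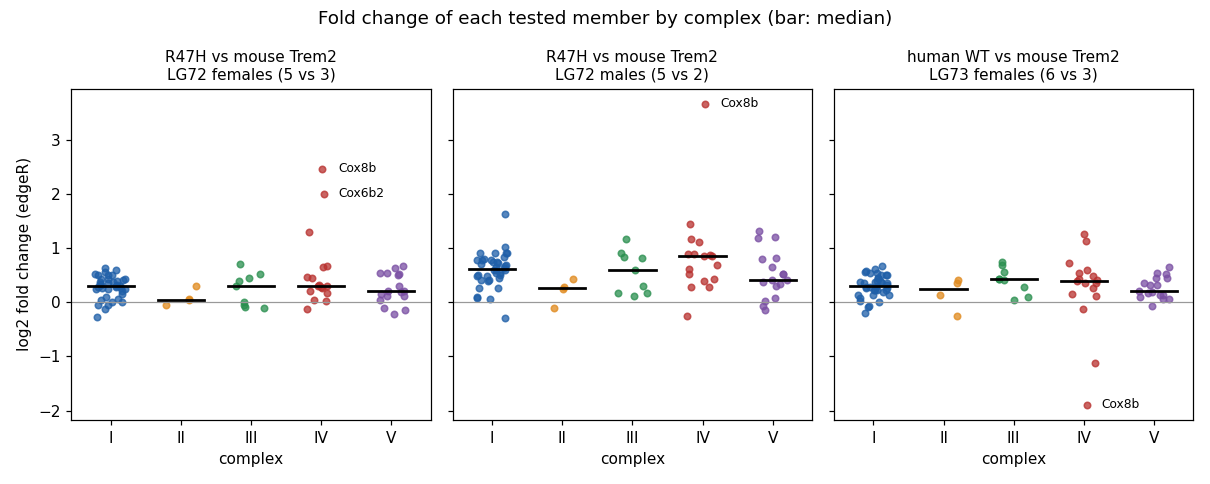
Log2 fold change (edgeR, vertical axis) of each of the 85 tested members by complex in the 3 genotype comparisons; bars are medians. Most points lie above 0 in every complex, and Cox8b lies farthest from 0 in each comparison, at 2.47, 3.67 and -1.89.

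In all, 65 members had values above 0 in the 3 genotype comparisons and 3 had values below 0 in each. The share of all genes with the same sign in all 3 was not counted. Of other genes with at least 10 CPM and transcripts of up to 1000 bases, 84.9%, 91.2% and 92.2% were above 0 in R47H females, R47H males and human WT females. Of those with longer transcripts, 41.1%, 44.6% and 51.4% were. The R47H females and males used different controls, as did the human WT females. The difference between the R47H values of females and males had a median of -0.30, with 73 members below 0 (51.4% of all genes). EdgeR called 0 members and 0% of all genes for it, 0 members passed an unadjusted p under 0.05 (3.54% of all genes higher and 1.8% lower), and DESeq2 and limma-voom called 0 members (0.00621% and 0% of all genes). Its median was -0.17 with the length slope as a covariate, -0.18 without the libraries that stood apart, -0.57 without mouse Trem2 male 1 and 0.03 without LG72 mouse Trem2 female 1. The difference between the R47H and human WT values of females had a median of -0.07, with 49 members below 0 (53.4% of all genes). EdgeR called 0 members and 0% of all genes, 3 members were higher at an unadjusted p under 0.05 (5.44% of all genes), and DESeq2 and limma-voom called 0 members (0.084% and 0% of all genes). Without the 6 libraries that stood apart this median was 0.34, and it was -0.32 without LG72 mouse Trem2 female 3 and 0.38 without female 1.

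The controls also differed among themselves. LG73 against LG72 mouse Trem2 females, both of the same labelled sex and genotype, gave a members' median of -0.33, with 79 below 0 (53.2% of all genes). EdgeR called 0 members and 0% of all genes there. At an unadjusted p under 0.05, 1 member was higher (2.01% of all genes) and 4 were lower (2.28%), and DESeq2 and limma-voom called 0 members (0.0124% and 0% of all genes). Without LG72 control 1 the median was 0.0020, and without LG72 control 3 it was -0.53. Males against females of LG72 with mouse Trem2 gave -0.57, with 83 members below 0 (51.7% of all genes). Of these, 11 passed an unadjusted p under 0.05 (3.96% of all genes). EdgeR called 0 members but 0.0372% of all genes, and DESeq2 and limma-voom called 0 members but 0.168% and 0.0248% of all genes. Without male 1 the median was -0.89, and without female 1 it was -0.21. With the length slope as a covariate the 2 medians were -0.09 and -0.25, and without the libraries that stood apart -0.10 and -0.33. These medians of -0.33 and -0.57 between control groups stand beside 0.30, 0.60 and 0.35 in the genotype comparisons.

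The minor forms of complex IV had the widest values. Cox8b (chromosome 7, 140898945 to 140900446, GENCODE M21 on GRCm38) had 5.47, 12.3, 1.52, 5.83 and 11.4 CPM in the R47H females and 2.50, 1.29 and 0.212 in their controls, a log2 fold change of 2.47 (SE 1.04, edgeR adjusted p = 0.301). R47H female 3 lay below control 1, so the groups overlapped. In males it had 2.10, 0.49, 0.864, 37.9 and 8.44 CPM against 1.32 and 0.181, a value of 3.67 (SE 1.34, edgeR adjusted p = 0.779). Replicates 2 and 3 lay below control 1, and the value was 1.94 without replicate 4 and 5.72 without control 1. In the human WT females Cox8b had 0.651, 1.52 and 2.33 CPM (lowest, median and highest), all below the 8.57, 4.65 and 3.89 of the controls, a value of -1.89 (SE 0.87, edgeR adjusted p = 0.860).

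Cox6b2 (chromosome 7, 4751792 to 4753094) had 9.52, 17.2, 4.70, 2.61 and 7.84 CPM in the R47H females and 1.06, 4.02 and 1.19 in their controls. Its log2 fold change of 2.01 (SE 0.63) had an edgeR adjusted p of 0.195, which ran from 0.0452 with DESeq2 to 0.839 in the libraries with little Alb, and the value was 1.08 without the libraries that stood apart. In males it was 1.17 (SE 0.71, edgeR adjusted p = 0.779), and in human WT females -1.13 (SE 0.54, edgeR adjusted p = 0.860). For the difference between the R47H and human WT values, Cox6b2 was at 3.14 (SE 0.83) and Cox8b at 4.37 (SE 1.37), each with an edgeR adjusted p of 0.342. Cox7a1 had 5.55, 7.27, 2.65, 6.11 and 10.5 CPM in the R47H females against 4.06, 2.68 and 1.10, a log2 fold change of 1.298 (SE 0.48, edgeR adjusted p = 0.254). In males it had 1.44 (SE 0.57, edgeR adjusted p = 0.779), with 11.7 CPM in replicate 4 and 3.07 to 4.07 in the other R47H males, and the value was 0.9029 without replicate 4 and 2.34 without control 1. Cox6a2 had 1.249, 3.38 and 4.72 CPM (lowest, median and highest) in the human WT females against 1.2504, 1.68 and 1.38, a log2 fold change of 1.14 (SE 0.45, edgeR adjusted p = 0.860). The main forms were closer to the rest: the 10 widely expressed subunits of complex IV had medians of 0.24, 0.77 and 0.40 in the 3 comparisons, and the 6 tissue forms 0.97, 1.15 and 0.02.

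Transcripts of the choroid plexus, the tissue that makes cerebrospinal fluid beside the hippocampus, varied with Cox8b and Cox6b2. All 10 listed choroid plexus markers were above 0 in R47H females (median 1.84) and in males (2.39), and all 10 were below 0 in human WT females (-2.09). Their summed level ran from 364 to 3573 CPM in the R47H females and from 66.0 to 639 in their controls. It ran from 99.9 to 2611 in the R47H males and from 126.3 to 169.9 in theirs, and from 51.6 to 679 in the human WT females and from 428 to 1732 in theirs. Each plexus marker had a mean above 1 CPM. The 10 ependymal markers had the same signs. All were above 0 in R47H females (median 1.19) and males (0.61), and all were below 0 in human WT females (-0.73). Cox8b was at 37.9 CPM in R47H male 4, where Ttr, the main secreted protein of the plexus, was at 1934 CPM, and at 12.3 CPM in R47H female 2 with Ttr at 2945 CPM. It was at 0.212 and 0.181 CPM in LG72 control female 3 and control male 2, with Ttr at 33.1 and 60.3 CPM. The part of the plexus or of the ependyma in these values was not tested. In tissue RNA, fewer cells of a type and less RNA per cell cannot be told apart.

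**Figure D5:**
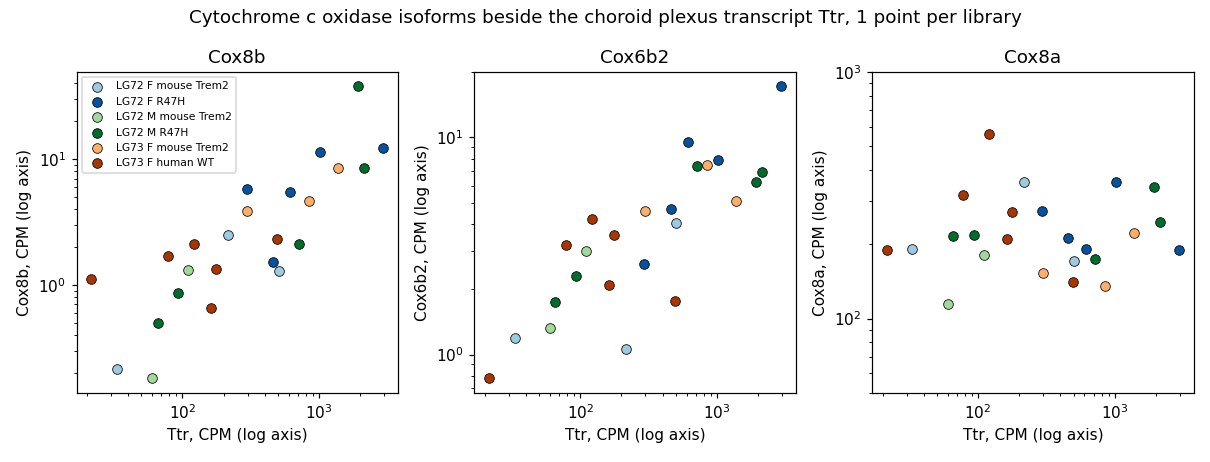
CPM of Cox8b, Cox6b2 and the main form Cox8a against CPM of Ttr (all axes log), 1 point per library, coloured by group. Libraries with Ttr of 615 CPM or more have 2.10 CPM or more of Cox8b, near its median of 2.11 CPM over the 24 libraries. Those with less Ttr have 0.181 to 5.83 CPM of Cox8b, so the ranges overlap. Cox8a lies between 115 and 559 CPM over the whole range of Ttr.

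For Cox4i1 and Atp5b, both among the 3 highest per kilobase, the groups overlapped. Cox4i1 (chromosome 8, 120668222 to 120674207) had 1639, 627, 992, 2006 and 1981 CPM in the R47H females and 2321, 883 and 654 in their controls, so the highest library was a control. In males it had 698, 815, 1009, 1769 and 919 CPM against 702 and 453. The human WT females had 442, 1091 and 1916 CPM (lowest, median and highest) against 951, 577 and 714. Atp5b had 1154, 1234, 1512, 1533 and 1446 CPM in the R47H females against 1876, 1551 and 1394, and 1311, 1396, 1527, 1273 and 1463 in the R47H males against 1398 and 1327. In both sexes the ranges of Cox4i1 and Atp5b crossed. Cox6c had 394, 343, 461, 782 and 341 CPM in the R47H males and 297 and 205 in their controls, with no overlap. The count of all members without overlap in males is given above. In females the Cox6c groups overlapped. It ran from 270 to 918 CPM with R47H and from 218 to 938 in the controls, so the highest library was again a control. The human WT females ran from 233 to 659 CPM and their controls from 311 to 339.

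Other lists of mitochondrial and short-transcript genes were set beside the members, as counts and medians only. Assembly factors of complex I had medians of 0.15, 0.35 and 0.26 in R47H females, R47H males and human WT females (10, 13 and 11 of 14 above 0). Those of complexes II and III had 0.13, 0.23 and 0.18, those of complex IV 0.0051, 0.30 and 0.30, and those of complex V with partners 0.18, 0.45 and 0.30. Mitochondrial ribosome genes had 0.21, 0.35 and 0.32, protein import genes 0.20, 0.42 and 0.28, and cytosolic ribosome genes 0.60, 0.77 and 0.40. Proteasome genes were nearer to 0, with 0.06, 0.09 and 0.15. Enzymes of the citric acid cycle, which feed the chain, had -0.01, -0.07 and 0.02, and glycolytic enzymes -0.22, -0.12 and -0.02. Cytochrome c with the carriers had 0.03, 0.09 and -0.0027. EdgeR called 0 genes of these lists in the 3 comparisons.

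By library, the score of the cytosolic ribosome had the same sign as that of the members in 23 of 24 libraries, the mitochondrial ribosome in 22, import in 21 and the proteasome in 23, but the citric acid cycle in 14 and glycolysis in 9. The 14 regulators of mitochondrial biogenesis had medians of -0.09, -0.02 and 0.04. Their single values ran from -0.49 to 0.85, from -0.43 to 0.59 and from -0.26 to 0.59. In R47H females 1 of the 14 was higher at an unadjusted edgeR p under 0.05, against 8.68% of all genes. Nrf1 itself had -0.27, -0.29 and 0.13, Gabpa 0.38, -0.08 and -0.11, Esrra -0.01, 0.53 and 0.59, and the coactivator Ppargc1a -0.24, 0.06 and -0.26. Cycs, which encodes cytochrome c, had 0.54, 0.34 and 0.25. None of these 5 genes was called by edgeR in any of the 3 comparisons.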

How the data were processed

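Raw counts per gene were deposited by the authors as a table of the whole series; per the submitters' processing notes the genome build was GRCm38, and the aligner, counter, annotation and strand setting are not stated there. Per the labels' protocols, RNA was enriched with oligo(dT). Columns were matched to samples by title, and 18 columns that match no sample were not used. Another 25 symbols had been turned into dates.

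Counts of all 24 libraries in 6 groups were fitted with edgeR 4.0.16 (R 4.3.3) after its filter on low counts, with TMM factors and the quasi-likelihood test, and p-values were adjusted over 16118 genes (Benjamini-Hochberg, threshold 0.05). CPM and log2 CPM (prior count 2) come from the same counts. Transcript lengths are those of GENCODE M21, found for 99.1% of the genes tested. Pseudogene copies were found by BLAST of coding sequences. Alternatives were DESeq2 1.42.0, limma-voom 3.58.1, other factors and filters, the compared groups alone, the length slope as a covariate, each library left out, and an adjusted p under 0.1. Fits without the libraries that stood apart, and in libraries with Alb below or above 30 CPM, were chosen after seeing the data.

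In each of the 3 genotype comparisons and each complex, up to 2 members with the smallest p were named by rule, as were 10 main subunits, the isoform pairs and the 3 members with the highest and lowest spread. Other members were named after their values were seen. The members and lists were chosen with earlier results of these data known. In simulated data, edgeR recovered 31%, 33% and 38% of 100 genes changed 2-fold and 81%, 77% and 92% of 100 changed 4-fold in the R47H female, R47H male and human WT comparisons, over 15907, 15915 and 15890 genes. Depth limits precision by counting error most in members under 10 CPM.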

Additional observations from a re-analysis of the deposited data

Results flagged for a closer look

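Within groups of 5 or 6 libraries, 1 library stood far from the others in 8 cases among 48 quantities (named members and 2 summary values) in each of 3 groups. Chance flags about 1 in 20.

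In R47H males, replicate 4 was the highest for Cox7a1 at 11.73 CPM (others 3.07 to 4.07), for Cox8b at 37.89 CPM (others 0.49 to 8.44) and for Ndufa4l2 at 1.597 CPM (others 0.864 to 1.04). Replicate 3 was the highest for Ndufv1, a core subunit of complex I, at 287.4 CPM (others 239 to 252.5). Replicate 1 was the lowest for Uqcrc1 at 209.8 CPM (others 262 to 282).

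In human WT females, replicate 2 was the highest for Atp5d at 390.8 CPM (others 91.9 to 174.5), for Atp5sl at 49.6 CPM (others 23.3 to 31.6) and for Cox5a, a nuclear-encoded subunit of cytochrome c oxidase, at 251.6 CPM (others 72.8 to 128). Replicate 2 also had the most negative length slope of the 24 libraries, -0.37.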

How the results depend on the processing

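No paired analysis was possible because replicates were numbered in accession order and no comparison has groups that share at least 2 title numbers. Of the values recomputed, 150 counts of called members did not change, and 562 values of named members kept their direction and their side of the threshold. These values are refits of the same members, and 7 further ones changed direction while 1 crossed the threshold. Of the medians, 140 moved by less than the SD of the members' score within groups (0.395), and 4 by more; 14 changed sign: 9 of the R47H value minus the human WT value, and 5 others. These 5 were R47H females (-0.0002) and human WT females (-0.04) with the length slope as a covariate, females minus males with high Alb (0.0367) or without LG72 mouse Trem2 female 1 (0.0288), and LG73 against LG72 controls without that library (0.0020). DESeq2 called 1 member in R47H females (Cox6b2, log2 fold change 1.998, adjusted p = 0.0452), with 1.14% of all genes. With the length slope as a covariate, the median in R47H males was 0.16, Sdha in R47H females was 0.0317 and Sdhd in human WT females -0.0297. Without the libraries that stood apart, the difference between the R47H and human WT values of females had a median of 0.34, and Ndufs7 in human WT females was -0.0035. In the libraries with high Alb, Sdhc in R47H males was -0.066. The cause was not tested. With 1 library left out, the median ran from 0.0477 to 0.71 in R47H females (without mouse Trem2 females 3 and 1), from 0.33 to 0.89 in R47H males (without mouse Trem2 males 2 and 1) and from 0.19 to 0.45 in human WT females. It ran from -0.32 to 0.38 for the R47H value minus the human WT value and from -0.57 to 0.03 for females minus males. Sdha in R47H females ran from -0.18 to 0.0775 and Sdhc in R47H males from -0.028 to 0.60. With 1 male control left, that library is assumed to vary like the other groups. No library left out gave a called member by edgeR.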

Other observations

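Markers of cell types and neighbouring tissues also had medians away from 0, in part through few libraries. In R47H females, all 10 microglial and all 10 oligodendrocyte markers were above 0, with medians of 0.95 and 0.87, and astrocyte markers had 0.43. Excitatory, inhibitory and general neuronal markers had -0.30, -0.44 and -0.33, and markers of hippocampal subfields 0.04. Endothelial and mural markers had 0.33 and 0.46, ependymal 1.19, striatal -1.13, olfactory -3.74, pituitary 3.83 and liver 0.39.

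In R47H males, microglial markers had a median of -0.30, oligodendrocyte markers 0.51, astrocyte markers -0.26 and general neuronal markers -0.10. Excitatory, inhibitory and subfield markers had -0.23, -0.13 and -0.08, endothelial 0.02, mural -0.03, ependymal 0.61, striatal 0.21, olfactory 0.25, pituitary 0.51 and liver 0.40. In human WT females the medians were 0.14 for microglia, -0.07 for oligodendrocytes, 0.09 for astrocytes and -0.01 for general neuronal markers. Excitatory, inhibitory and subfield markers had -0.13, 0.24 and -0.08, endothelial 0.17, mural -0.03, ependymal -0.73, striatal 1.54, olfactory 0.21, pituitary -1.27 and liver 0.48. Striatal markers summed to 198, 207 and 1170 CPM (lowest, median and highest) in human WT females, against 183, 232 and 242 in the controls. The part of these cell types in the values of the respiratory chain genes was not tested.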
